A study of Mus musculus with 12 samples.

Results

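The 6 libraries described here hold the transcriptome of mouse oocytes from females on the control diet (CD), and they are 6 of the 12 libraries of the series. They were chosen by their label alone, as the 6 CD columns of a table of read counts for 24062 genes, and no comparison with the high-fat diet was made. The labels give 6 females for this diet, which ate the control feed for 9 weeks, were mated with vasectomized males while still on that feed, and were killed at day 0.5 after mating, so the collected cells were ovulated and unfertilised. Strain, age and genotype are not given in the labels, the feed of both diets carries the same product code, and which female gave which pool is not stated. Each library was made from full-length cDNA of 4 pooled oocytes, amplified with the SMART-Seq v4 kit, which switches templates during reverse transcription, and fragmented by tagmentation (Nextera XT), a chemistry without molecular identifiers that does not mark the strand. A pool is called a replicate below, with the number of its label, and the spread between replicates may be partly technical.

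An ovulated mouse egg is arrested at the second meiotic metaphase and makes almost no new RNA. Its transcriptome is a store laid down while the oocyte grew, and many of the stored messages are kept with a short poly(A) tail until a defined stage of maturation. The cytoplasmic polyadenylation element (CPE), a short U-rich signal near the end of the 3′ untranslated region (UTR), is bound by CPEB proteins and controls when the tail of such a message is lengthened and when the message is translated. After fertilisation most of the store is deadenylated and destroyed, a process that begins during maturation. Full-length cDNA priming depends on a poly(A) tail, so the counts follow polyadenylated RNA and not all RNA of a gene.

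Gene counts summed to between 8556396 and 10477316 per library, and between 12344 and 13052 genes had at least 1 count. In all 6 libraries 10164 genes were detected, 15838 were detected in at least 1, and 8224 had no count in any. Levels are given below as CPM, the gene counts of a library scaled to a sum of 1000000. Each was then divided by the library's factor from trimmed means of M-values (TMM). This factor was 1.155 in replicate 1 and 0.926 (replicate 4) to 1.006 (replicate 5) in the others, so the adjusted levels of a library no longer sum to 1000000. The spread of a gene between the 6 replicates is given as the coefficient of variation (CV), the SD in percent of the mean. Replicates 2 and 4 stood apart from the rest. The first principal component of log2(CPM + 2) over the 5784 genes with a mean of 10 CPM or more held 66.5% of the variance, and on it replicate 2 scored 54.2 and replicate 4 scored 61.5, while the other 4 lay between -49.0 and -7.17. The second component, with 17.3% of the variance, set replicate 3 (score 39.9) apart from replicate 1 (-30.6). Across those genes the log2 levels of replicates 2 and 4 had a Pearson correlation of 0.970 with each other and of 0.691 to 0.864 with the other libraries, a description without a p-value. Levels and CVs are given with all 6 libraries unless stated. Of the 151 genes named, the CV changed by over 1.5 times for 51 without replicates 2 and 4 and for 19 without replicate 3, so a single CV in the text can rest on those pools.

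The defining oocyte genes were abundant in every library, although their levels were not even. H1foo, the linker histone found in oocytes, stood at 12079, 2609.8, 10696, 2113, 12123 and 17603 CPM in replicates 1 to 6. Gdf9, a growth factor that the oocyte secretes to its follicle cells, stood at 5719, 562, 8405, 597, 5878 and 8347 CPM. For both genes replicates 2 and 4 were the lowest libraries, with no overlap with the other 4. Bmp15, the partner of Gdf9 in the same signalling family, stood at 509, 561, 1993, 637, 709 and 685 CPM, with replicate 3 alone high. The lowest of these 18 values, 509 CPM for Bmp15 in replicate 1, was still above the mean of 98.1% of the 15838 detected genes. Most markers of other cells were low or absent. Of 32 cumulus and granulosa markers, 13 had no count in any library, among them Amh, Inha, Lhcgr and Pgr, and 5 had a mean of 1 CPM or more. Their summed level ran from 142 to 1439 CPM, of which Serpine2, a protease inhibitor, held 91.6%. Without Serpine2 the sum was 47.2 to 105.0 CPM. Cyp19a1, the next in level, stood at 26.0 to 54.5 CPM. Serpine2 stood at 674, 98.9, 1378, 94.9, 941 and 1155 CPM, again lowest in replicates 2 and 4. In replicate 1 alone the steroidogenic enzyme gene Cyp11a1 reached 51.4 CPM, with at most 0.501 CPM elsewhere. The 15 oviduct markers summed to 10.04 to 232 CPM, 85.6% of it from the adhesion gene Cdh1, with Pax8, Msln, Krt7 and Muc1 at 0. The 18 blood and immune markers summed to 11.7 to 61.5 CPM, 73.3% of it from H2-Aa, with the globin genes Hba-a1, Hba-a2, Hbb-bs and Hbb-bt at 0. The 18 stromal, muscle and endothelial markers summed to 84.8 to 209.7 CPM, highest in replicate 3, with 38.8% of it from Pecam1. Without Pecam1 the sum was 56.8 to 88.0 CPM, with 57.7 CPM in replicate 3. The 16 sperm markers summed to 3.31 to 10.6 CPM. The part of such cells in the spread between replicates was not tested, and in a pool fewer cells of a type and less RNA per cell cannot be told apart.

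The store was dominated by a short list of genes. The 139 genes with a mean of 1000 CPM or more held 41.9% ± 3.19 (SD, n = 6) of all gene counts, and 1546 genes between 100 and 1000 CPM held a further 41.1% ± 1.67. The 4099 genes between 10 and 100 CPM held 15.04%, the 4300 between 1 and 10 CPM held 1.71%, and 5754 detected genes under 1 CPM held 0.160%. The 10 highest genes of a library took 10.97% to 13.6% of its counts and the 50 highest took 26.0% to 32.0%. Between 177 genes (replicate 4) and 289 genes (replicate 1) were enough to reach 50% of the counts. The order at the top differed between pools. Bcl2l10 led replicate 1, Tcl1 led replicates 2 and 4, Zbed3 led replicate 5, and E330021D16Rik led replicates 3 and 6. Of the 20 highest genes of each library, 13 were shared by all 6, and of the 100 highest, 61 were.

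**Figure D1:**
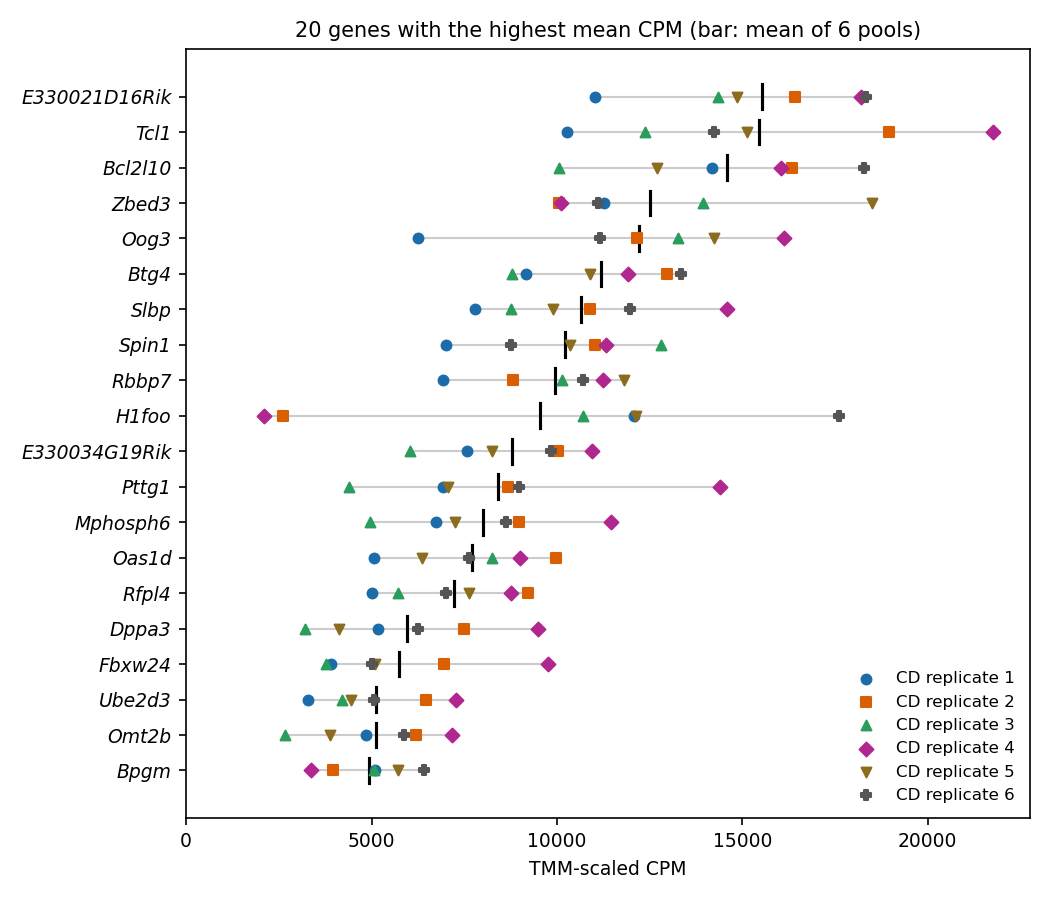
TMM-scaled CPM (x axis, linear) of the 20 genes with the highest mean, in each of the 6 control-diet pools (coloured symbols), with the mean as a black bar and the range as a grey line. H1foo is the gene with the widest relative range, from 2113 to 17603 CPM, with replicates 2 and 4 at its low end.

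By mean CPM the highest gene was E330021D16Rik, a gene of chr6:136400317-136415569 (mm10) that belongs to the list of oocyte-specific families. It stood at 11031, 16416, 14353, 18190.4, 14854 and 18344 CPM in replicates 1 to 6, 15532 ± 2752 CPM (SD, n = 6). Tcl1, a coactivator of the kinase Akt at chr12:105216750-105222793, stood at 10273, 18960.0, 12372, 21768, 15134 and 14238 CPM. Its mean was 15457 ± 4245 CPM, so the first and second genes differed by far less than their SD. Bcl2l10, a BCL2-family gene at chr9:75347758-75351632, followed with 14175, 16337, 10059, 16054, 12701 and 18272 CPM and a mean of 14599.7 ± 2933. Zbed3, a zinc-finger component of the subcortical maternal complex, stood at 11270.4, 10053, 13942, 10118, 18493 and 11115 CPM, highest in replicate 5. Oog3, an oogenesin of the PRAME-like family, stood at 6258, 12154, 13266, 16127, 14228 and 11170.0 CPM, lowest in replicate 1. Neighbours in this order were not separated: the means of the first 5 genes ran from 12201 to 15532 CPM and each had an SD of 2752 CPM or more. The promoters of the 3 of these genes that lead the order or hold both motifs searched are shown here, since FIGLA and SOHLH1, which bind E-boxes, and NOBOX and LHX8, which bind homeobox sites, are known regulators of transcription in the growing oocyte. Each runs from 250 bases before to 50 bases after the transcription start in RefSeq (GRCm38.p6), on the gene's strand, and capitals mark the E-box CANNTG and the homeobox motif TAATTG or TAATTA, searched on both strands.
E330021D16Rik (chr6:136415520-136415819, minus strand): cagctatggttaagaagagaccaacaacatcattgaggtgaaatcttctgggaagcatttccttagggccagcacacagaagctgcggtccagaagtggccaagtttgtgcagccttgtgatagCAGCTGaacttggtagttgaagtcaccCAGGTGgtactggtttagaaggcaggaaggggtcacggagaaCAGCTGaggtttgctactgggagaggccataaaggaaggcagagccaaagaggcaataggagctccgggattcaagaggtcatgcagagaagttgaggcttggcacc
Tcl1 (chr12:105222688-105222987, minus strand): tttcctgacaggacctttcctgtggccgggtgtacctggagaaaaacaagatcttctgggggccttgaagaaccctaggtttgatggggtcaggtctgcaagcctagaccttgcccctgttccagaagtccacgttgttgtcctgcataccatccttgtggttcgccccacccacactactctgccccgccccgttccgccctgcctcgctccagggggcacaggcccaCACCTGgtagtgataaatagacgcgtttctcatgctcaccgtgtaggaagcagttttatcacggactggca
Oog3 (chr4:144162602-144162901, minus strand): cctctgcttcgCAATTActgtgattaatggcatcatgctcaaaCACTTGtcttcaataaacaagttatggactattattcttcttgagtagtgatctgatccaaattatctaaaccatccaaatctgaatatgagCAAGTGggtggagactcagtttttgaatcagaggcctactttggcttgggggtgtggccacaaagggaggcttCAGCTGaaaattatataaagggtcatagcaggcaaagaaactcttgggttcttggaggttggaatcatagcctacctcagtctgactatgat
The E-box letters occurred 3 times in the window of E330021D16Rik, once in that of Tcl1 and 3 times in that of Oog3, and the homeobox letters occurred in the window of Oog3 alone of these 3. Over the 40 of the 50 highest genes with a promoter sequence, 77.5% held an E-box and 10% a homeobox motif, beside 72.1% and 12.5% of all 27025 promoters. Over the 4488 matched genes with a mean of 10 CPM or more the shares were 61.9% and 7.80%. A match of letters is a description and not a binding site.

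The other genes of the first 20 include regulators of message decay, chromatin and chromosome segregation. Btg4, the adaptor that brings the CCR4-NOT deadenylase to maternal messages, stood at 9154, 12960.0, 8800.4, 11921, 10881 and 13335 CPM, with a CV of 17.1%. Slbp, which binds the stem-loop of histone messages, had 10648 ± 2432 CPM, and the histone-methylation reader Spin1 10218 ± 2047 CPM. Rbbp7, a histone-binding subunit of deacetylase complexes, had 9937 ± 1794 CPM. Pttg1 (securin, which keeps separase inhibited until anaphase) had 8407 ± 3352 CPM and was highest in replicate 4 with 14391. Mphosph6, an exosome-associated protein gene, had 8001 ± 2223 CPM. The oocyte-family members E330034G19Rik, Oas1d, Rfpl4, Fbxw24 and Omt2b had means from 5111 to 8781 CPM. Dppa3 (Stella), which protects the maternal genome from demethylation, stood at 5185, 7498, 3193, 9499, 4110.1 and 6263 CPM. Replicates 2 and 4 were its highest libraries, the reverse of H1foo. Ube2d3, a ubiquitin-conjugating enzyme, and Bpgm, bisphosphoglycerate mutase, closed the first 20 with 5121 ± 1493 and 4934 ± 1116 CPM. Reads of near-identical copies can be lost or split when only unique alignments are counted, so the levels of the families E330021D16Rik and E330034G19Rik, Oog, Tcl1b, Omt2, Oas1, Fbxw and Obox are uncertain in that sense.

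Per kb of summed exon length, the scale on which genes can be compared with each other, the order changed. Bcl2l10 came first with 11967 CPM per kb, ahead of E330021D16Rik with 8478 and Tcl1 with 8378 CPM per kb. H1foo, rank 10 by CPM, had rank 4 with 7941 CPM per kb, and Dppa3, a gene of 892 exonic bases, had rank 5 with 6679 CPM per kb. Oog3, Zbed3, E330034G19Rik, Btg4 and Rfpl4 followed with 6542 to 4209.9 CPM per kb. The genes that entered the first 20 on this scale were Tcl1b1, Omt2a, Ldhb and Gdf9, with 2354 to 3234 CPM per kb. Slbp, Spin1 and Bpgm left it, and Ube2d3, whose annotated exons cover 24499 bases, fell to rank 235 with 209 CPM per kb. With the longest transcript in place of the summed exons, 18 of these 20 genes were the same. On that scale Slbp had 3644 CPM per kb, above Tcl1b1 with 3234. Summed exons take in every annotated isoform, and the 1 coding transcript of Ube2d3 used for its 3′ UTR has 3833 bases. The ranks of such genes thus depend on the length chosen.

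The lists of genes by function differed in level. The oocyte lists hold genes known from oocytes, and lists were chosen with earlier results of these data known. Their high levels thus follow in part from that choice. Over all 24062 genes, 5784 had a mean of 10 CPM or more and 1685 had 100 CPM or more. The 34 detected members of the oocyte-specific families, of 35 listed, all had a mean of 10 CPM or more and 31 of them 100 CPM or more. Their summed level was 143336 ± 19973 CPM (SD, n = 6), from 114471 in replicate 1 to 166727 in replicate 4. The 23 genes of the subcortical maternal complex and other maternal-effect genes were all at 10 CPM or more and summed to 27627 ± 3507 CPM. Zbed3, Dppa3 and the NLRP gene Nlrp4f (2029 CPM) were the largest of them. Nlrp5 (MATER, a core subunit of the complex) stood at 87.2, 168, 329, 155, 179.6 and 82.5 CPM, with the 2 lowest values in replicates 1 and 6. Its partners Tle6 and Khdc3 had means of 98.7 and 15.2 CPM. Padi6, the arginine deiminase of the cytoplasmic lattices, stood at 215, 665, 465, 459, 463 and 185 CPM, while Ooep, also of the complex, stood at 300.2, 21.9, 157, 17.5, 284 and 593 CPM, with replicates 2 and 4 far below the other 4. Among oocyte transcription regulators, the homeobox genes Obox5, Obox1 and Obox2 led with 4209 ± 883, 3305 ± 659 and 2951 ± 1182 CPM. Nobox, Lhx8 and Pou5f1 had 143 ± 100.2, 106 ± 105 and 131 ± 59.7 CPM, each highest in replicates 2 and 4. Figla and Sohlh1, which act early in follicle formation, had means of 0.317 and 0.0364 CPM.

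Genes that hold and release the meiotic arrest were also present at high levels. Of 33 listed, 29 had a mean of 10 CPM or more, and their sum was 22114 ± 5136 CPM (SD, n = 6). Ccnb1, the cyclin of maturation-promoting factor, stood at 2316, 6069, 4916, 6050.5, 3537 and 3473 CPM, with the 2 highest values in replicates 2 and 4. Mad2l1 of the spindle checkpoint had 1934 ± 536 CPM and Cdc20, the activator of the anaphase-promoting complex, 355 ± 52.6 CPM, with a CV of 14.8%. Wee2, the kinase that keeps CDK1 inhibited, and Fbxo43 (EMI2, the inhibitor that keeps the egg in metaphase) had 920.3 ± 290.1 and 327 ± 69.6 CPM. Mos, the kinase that maintains the metaphase arrest, stood at 354, 3.97, 398, 4.04, 353 and 504 CPM. Replicates 2 and 4 were thus at 3.97 and 4.04 CPM and the other 4 between 353 and 504 CPM, with no overlap. Btg4 and Cnot7, the deadenylase subunit to which it binds, led the 28 detected genes of maternal message decay, Cnot7 with 1928, 3248, 3749, 3900.1, 2905 and 3012 CPM. The decapping activator Dcp1a stood at 649.7, 465, 2733, 368, 413 and 598 CPM, with replicate 3 alone high. The CPE-binding protein gene Cpeb1 had 75.8 ± 48.3 CPM, highest in replicate 3 with 167.

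Most genes for ribosomal proteins and glycolytic enzymes, and several common reference genes, were under 100 CPM. The same held for most genes of the table: of 24062, 5784 had a mean of 10 CPM or more and 1685 had 100 or more. A level under 100 CPM is thus not particular to these lists. Of 83 genes for cytoplasmic ribosomal proteins, 21 had a mean of 10 CPM or more and 1 had 100 or more, that one being Rps27l with 461 ± 168 CPM, and all 83 summed to 1133 ± 308 CPM (SD, n = 6). Rpl4 and Rplp0 had 68.8 ± 51.1 and 60.1 ± 32.4 CPM. These genes have many processed pseudogenes, which can take or void their reads. Of 18 glycolysis genes 7 had a mean of 10 CPM or more, and Ldhb, a lactate dehydrogenase subunit, held most of their sum with 1802, 7472, 1679.8, 8476, 3086 and 2381 CPM. The next of them, Slc2a1 and Gapdh, had 33.5 ± 6.14 and 30.2 ± 12.4 CPM. The 44 translation-factor genes at 10 CPM or more were led by Eif2b1, Eif5a and Eif5 with 1677 ± 395, 1288 ± 355 and 1101 ± 237 CPM. Among antioxidant genes Prdx1 led with 2240.3 ± 521 CPM and a CV of 23.2%. Its paralogue Prdx2 stood at 283, 3059.6, 241, 3046, 482 and 381 CPM, with replicates 2 and 4 far above the rest. Genes often used to normalise qPCR differed in level and in spread. Actb had 14.4 ± 5.49 CPM, a CV of 38.1%, and Gapdh had a CV of 41.1%. Ppia and Rplp0 had CVs of 48.2% and 53.8% (Rplp0 29.1% without replicates 2 and 4), while Gusb and Tfrc were near 0, with means of 0.110 and 0.267 CPM. The steadiest of the 18 with 10 CPM or more was Sdha, a subunit of respiratory complex II, which stood at 234, 286, 266, 230.0, 204 and 223 CPM, a CV of 12.6%. The highest in level, Ywhaz and Hprt, had 426 ± 79.1 and 532 ± 142 CPM and CVs of 18.6% and 26.7%.

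The spread between pools was several times larger than counting error for most genes. Over the 5784 genes with a mean of 10 CPM or more the median CV was 40.7%, with quartiles of 28.4% and 59.6%, beside a median of 4.79% that counting alone would give at these counts. By level the median CV fell from 43.6% between 10 and 100 CPM to 35.4% between 100 and 1000 CPM and 27.5% at 1000 CPM or more. A CV under 20% was found for 500 genes (8.64%) and a CV of 100% or more for 232 (4.01%). Both counts depend on single libraries. Without replicate 3 they were 1027 and 114, and without replicates 2 and 4 together 974 and 69, with a median CV of 33.1%. The common biological CV that edgeR estimates over the same genes was 53.7% with all 6 libraries, 50.1% to 57.1% with 1 of them left out, and 41.0% without replicates 2 and 4.

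**Figure D2:**
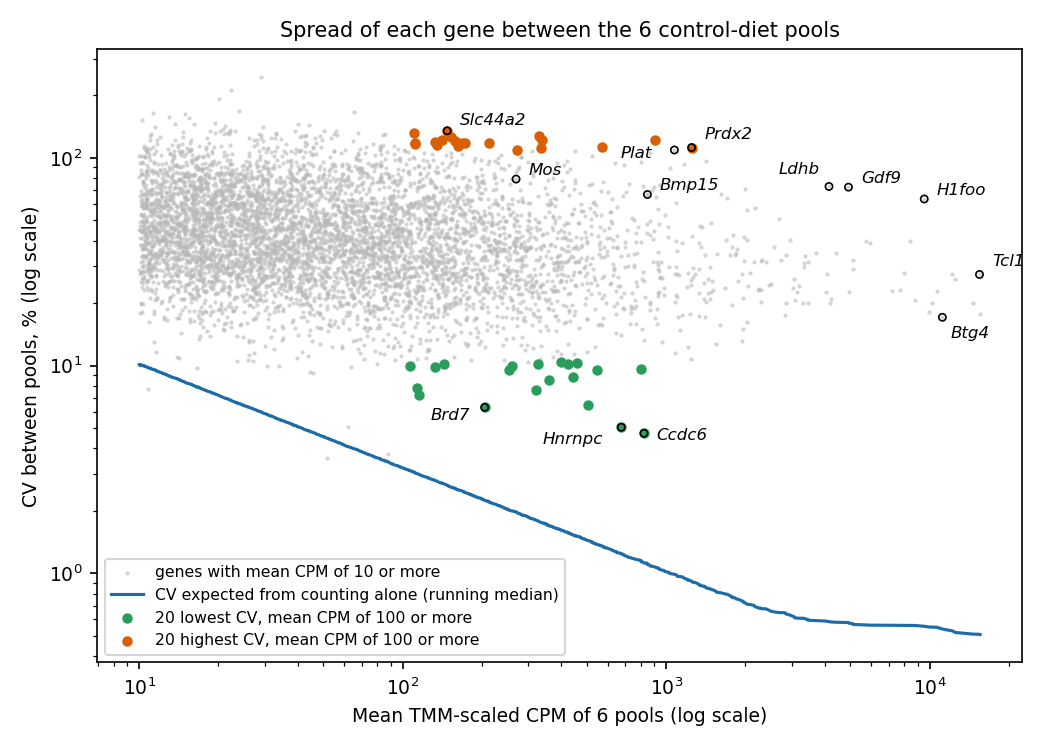
CV between the 6 pools (y axis, percent, log scale) against mean TMM-scaled CPM (x axis, log scale) for the 5784 genes with a mean of 10 CPM or more, with the CV expected from counting alone as a blue line. The 20 genes of lowest CV (green, 4.72% to 10.4%) and of highest CV (orange, 109% to 135%) among those with 100 CPM or more lie on the edges of the cloud, and even the lowest stay above the counting line.

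The steadiest genes, sought among those with a mean of 100 CPM or more, were of varied function. By mean CPM the 20 with the lowest CV ranked from 181 (Ccdc6) to 1594 (Rnps1). Of 1685 genes with a mean of 100 CPM or more, 241 had a CV under 20% and 15 under 10%. Ccdc6, a coiled-coil gene known from fusions with RET, had the lowest, with 774, 857, 870.1, 805, 791 and 845 CPM in replicates 1 to 6 and a CV of 4.72%, beside 1.12% from counting. Hnrnpc, a nuclear binder of uridine-rich RNA, stood at 661, 724, 620.2, 677, 688 and 683 CPM, a CV of 5.05%. Brd7, a bromodomain subunit of the PBAF remodelling complex, stood at 224, 206, 186, 209, 196 and 209 CPM, a CV of 6.30%. The highest library was 1.12 times the lowest for Ccdc6, 1.17 times for Hnrnpc and 1.20 times for Brd7. Ahsa1, a cochaperone of HSP90, and Slc25a38, the mitochondrial glycine carrier, had CVs of 6.45% and 7.18%. Nfrkb (a subunit of the INO80 remodelling complex), Ccdc79 (a meiotic telomere gene, also called Terb1) and Fnta (the shared subunit of farnesyl and geranylgeranyl transferase) had CVs of 7.66%, 7.76% and 8.48%. Mthfd2 of mitochondrial folate metabolism, the microtubule genes Mapre1 and Tubb3, and Arhgef39 lay between 8.84% and 9.58%. RNA-handling genes Rbm7, Tcea1, Rnps1 and Eif4a2 (a nuclear exosome adaptor, an elongation factor, an exon-junction component and an RNA helicase) lay between 9.82% and 10.2%. Taz (tafazzin), D1Ertd622e, Smc6 and Ccdc47 completed the 20, up to 10.4%. Among the 139 genes with 1000 CPM or more, 20 had a CV under 20%. The lowest of them were Wtap (a subunit of the m6A methyltransferase complex), Rnf34 and Rab14 with 10.7%, 11.5% and 12.3%, 3 genes singled out after their values were seen. The 20 steadiest genes depend on which libraries are counted. Without replicates 2 and 4 together 8 of the 20 were again among the 20 lowest, and without 1 library 5 (replicate 3) to 14 (replicate 4).

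The genes that varied most showed 3 patterns, which overlap and in which the same few pools stood out. Of the 20 genes with the highest CV at 100 CPM or more, replicates 2 and 4 were the 2 highest libraries for 11 and the 2 lowest for 6, and replicate 3 was 3-fold or more above every other library for 8. For all 6 that were lowest in replicates 2 and 4, replicate 3 was the highest library. The values chose these genes, so the counts describe the list and test nothing. Genes high in replicates 2 and 4 alone included Atp6v1e1, a subunit of the vacuolar proton pump, with 36.0, 307, 11.7, 471, 53.8 and 32.7 CPM. Fth1, the ferritin heavy chain, stood at 44.9, 382, 10.2, 423, 62.9 and 26.5 CPM, and Naca, of the nascent-polypeptide-associated complex, at 38.2, 430.5, 22.7, 439, 64.4 and 43.2 CPM. Cript, Oser1, Zfp930, Nfil3 and Apitd1 (CENP-S, a kinetochore protein) behaved alike, with CVs of 109% to 119%, and of 40.7% (Apitd1) to 62.0% (Cript) without replicates 2 and 4. Spc25 of the NDC80 kinetochore complex stood at 39.0, 340.2, 26.9, 329, 34.2 and 37.8 CPM. Without replicates 2 and 4 its CV was 16.3%, against 115% with all 6. Tmem14c, a mitochondrial membrane protein, stood at 16.9, 209, 59.2, 461, 9.28 and 92.2 CPM, and among the other 4 libraries it still had a CV of 87.4%.

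Genes with a high replicate 3 form the second pattern. For some of them, such as Tollip, Ermp1 and Slc39a10, replicates 2 and 4 were also the 2 lowest libraries. Rttn, a centriole protein gene, stood at 151, 161, 1181, 106, 137 and 239 CPM, and Tollip, an adaptor of Toll-like receptors, at 70.0, 21.1, 403, 22.3, 71.4 and 75.6 CPM. Ermp1, an endoplasmic reticulum peptidase, stood at 668, 356, 3140.0, 299.6, 428 and 554 CPM. Replicate 3 was 4.94 times the next library for Rttn, 5.32 times for Tollip and 4.70 times for Ermp1. Strn, Ampd3 and Slc39a10 (a zinc transporter) had CVs of 117%, 117% and 112%, and of 35.4%, 42.9% and 48.5% without replicate 3. Slc44a2, a choline transporter-like gene, had the highest CV of the genes with 100 CPM or more, with 125, 11.3, 542, 9.85, 109 and 89.2 CPM. It combined a high replicate 3 with low replicates 2 and 4, as did Adpgk and the coatomer subunit Arcn1, the latter with 180.2, 9.04, 1113, 20.8, 445 and 266 CPM. Over all 5784 genes a single library was 3-fold or more above the next for 124, and this library was replicate 3 for 116 of them. Kit, the receptor of stem cell factor on the oocyte, was one of these with 74.7, 29.5, 307, 33.8, 60.3 and 51.4 CPM.

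Genes low in replicates 2 and 4 form the third pattern, and they include oocyte genes. Plat, Bub1b, Smc3 and P4hb, given first, are not among the 20 highest CVs and were named by their loading. Plat, tissue plasminogen activator, a classical dormant message of the mouse oocyte, stood at 1067, 30.3, 3094, 21.96, 575 and 1659 CPM. Bub1b, the spindle checkpoint kinase BUBR1, stood at 835, 17.4, 1624, 19.4, 528 and 809 CPM, and the cohesin subunit Smc3 at 364, 14.1, 469, 5.68, 212 and 549.6 CPM. P4hb, protein disulfide isomerase, stood at 164, 2.68, 386, 6.06, 174 and 179 CPM. For these 4 genes the third-lowest library was 15.01 times (Smc3) to 27.2 times (Bub1b) the second-lowest. Mos, Plat, Bub1b, Smc3, P4hb and Arcn1 had the 6 most negative loadings on the first component, so they are among the genes that define it. Tet3, the dioxygenase of the zygote, and Zar1, a maternal-effect gene, stood at 1189, 199, 554, 141, 494 and 814 and 1105, 199, 1067, 144, 981 and 1601 CPM. In the DNA methylation list Dnmt1 and its partner Uhrf1 likewise had their 2 lowest values in replicates 2 and 4, with 38.4 and 44.1 CPM at the lowest. The list as a whole was not low there. Of its 12 genes with 10 CPM or more, replicates 2 and 4 were the 2 lowest for 4 and the 2 highest for 3, Dppa3 and Zfp57 among the latter. Over all such genes the shares were 27.2% and 23.6%. The zona gene Zp3 stood at 69.4, 11.7, 123, 11.1, 47.9 and 113 CPM, while Zp1 and Zp2 had their lowest value in replicate 1.

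**Figure D3:**
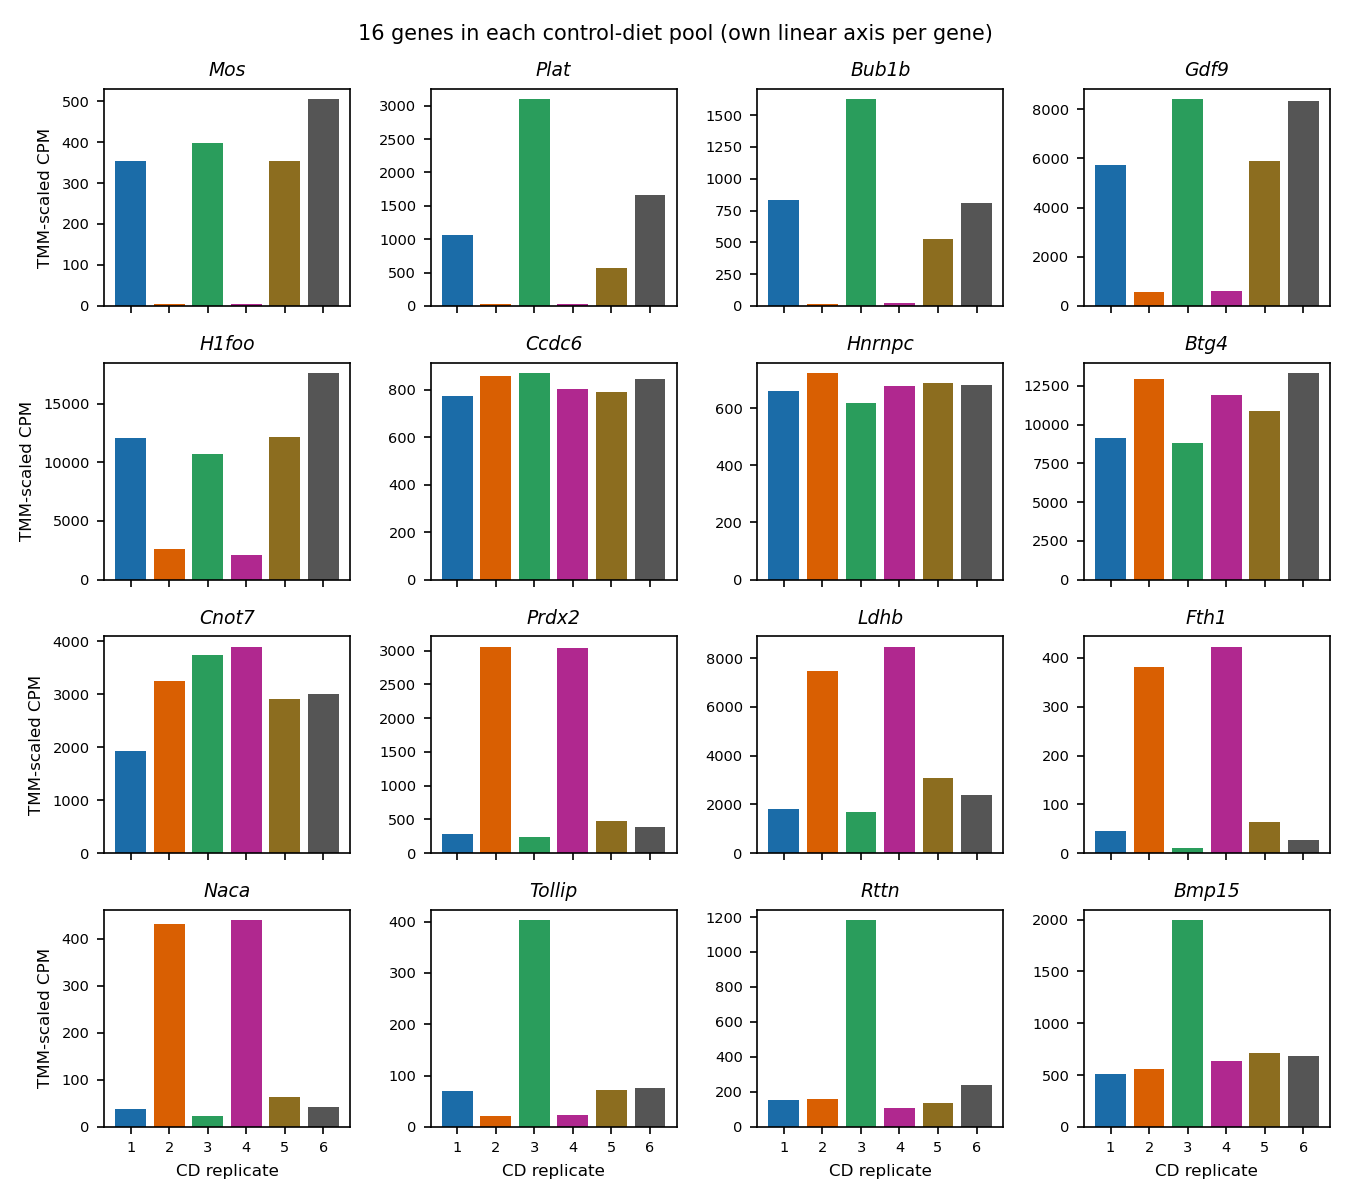
TMM-scaled CPM (y axis, linear, own scale per gene) of 16 genes in each control-diet replicate (x axis), 1 bar per pool of 4 oocytes. Mos, Plat, Bub1b, Gdf9 and H1foo are low in replicates 2 and 4, Prdx2, Ldhb, Fth1 and Naca are high there, Tollip, Rttn and Bmp15 are high in replicate 3, and Ccdc6, Hnrnpc, Btg4 and Cnot7 are comparatively even.

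The pairing of replicates 2 and 4 extended over the transcriptome. They were the 2 highest libraries for 1364 of the 5784 genes with 10 CPM or more (23.6%) and the 2 lowest for 1576 (27.2%), and of the 15 possible pairs none was the highest or the lowest as often. The next pair was replicates 1 and 3 among the highest, with 772 genes, and replicates 1 and 6 among the lowest, with 757. Lists differed in how often their members followed the pair. Replicates 2 and 4 were the 2 highest for 25 and the 2 lowest for 2 of the 34 nuclear-encoded respiratory chain genes with 10 CPM or more. Cox5a of complex IV stood at 183, 423, 71.4, 474, 225 and 184 CPM and Atp5j2 of the ATP synthase at 6.58, 75.9, 2.40, 67.0, 9.83 and 5.79 CPM. The steadiest of that list was Sdha, and Atp5b, the catalytic subunit of the synthase, had a CV of 21.3%. For mitochondrial ribosomal proteins the counts were 23 and 7 of 43, with Mrps7 at 4.04, 70.5, 4.51, 69.6, 9.50 and 5.59 CPM. For translation factors they were 17 and 8 of 44, with Eif1b at 91.2, 728, 51.9, 750.2, 122 and 118 CPM. For oocyte-specific families they were 16 and 7 of 34, and for glycolysis 6 and 0 of 7. The growth factor, zona and egg-surface list had 0 and 5 of 8 and a median CV of 69.4%, beside 40.7% over all genes. Without replicates 2 and 4 that median was 38.5%, beside 33.1%. The subcortical and maternal-effect list had 3 and 8 of 23, and the spindle, kinetochore and cohesin list 5 and 9 of 20. These are counts beside the shares over all genes, and no list was tested.

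Transcript length moved with the pools. In the shortest of 5 equal classes of genes by transcript length (76 to 1764 bases) the median log2 deviation from a gene's own mean was 0.25 in replicate 2 and 0.35 in replicate 4, and in the longest -0.28 and -0.37. Replicate 3 ran the other way, from -0.57 in the shortest to 0.47 in the fourth class and 0.41 in the longest. Replicate 1 stood at -0.12 in the shortest and 0.26 in the longest, and replicates 5 and 6 stayed within 0.12 of 0. Reads aligned to more than 1 place also moved with these pools, at 26.0% and 26.5% of tallied reads in replicates 2 and 4, 18.6% in replicate 3 and 22.4% to 23.3% in the others. The 45S ribosomal RNA gene Rn45s stood at 354, 206, 43.0, 239, 155 and 181 CPM, lowest in replicate 3. The part of these measures in the differences between pools was not tested.

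**Figure D4:**
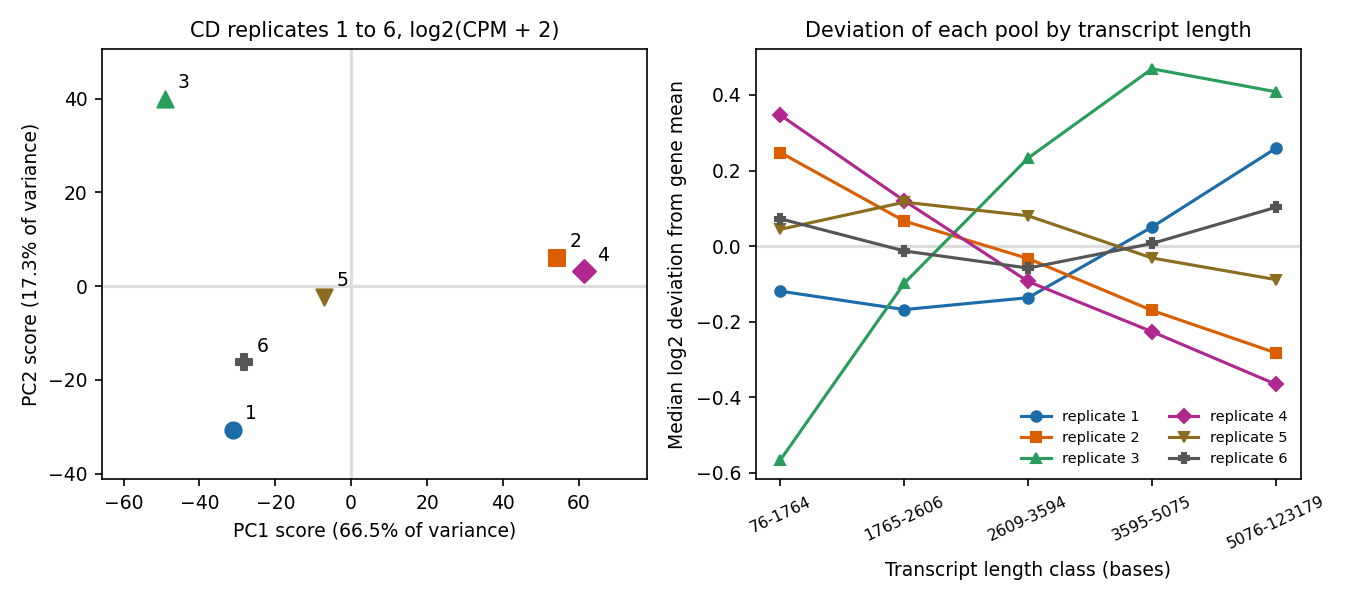
Left, scores of CD replicates 1 to 6 on the first and second principal components of log2(CPM + 2), where replicates 2 and 4 lie together at 54.2 and 61.5 on the first. Right, median log2 deviation of each replicate from the mean of each gene (y axis) in 5 classes of transcript length (x axis, bases), where replicate 3 runs from -0.57 in the shortest class to 0.47 in the fourth and 0.41 in the longest, and replicates 2 and 4 fall from class to class.

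The ends of the 3′ UTRs differed along the first component. The genes were ordered by their loading, from the most negative (lowest in replicates 2 and 4) to the most positive (highest there), and the last 100 bases of the 3′ UTR of 1 transcript per gene (GENCODE M21, mm10) were searched for the CPE letters TTTTAT or TTTTAAT on the transcript's strand. The letters were in 24.3% of the 5602 genes with an annotated 3′ UTR. Replicate 3 had the lowest score on this component (-49.0), so the order also carries its difference from the other libraries. The genes were cut into 10 deciles of loading. In decile 1, with the most negative loadings, the letters were in 31.9%, in decile 2 in 30.5%, in decile 9 in 17.6% and in decile 10, with the most positive, in 8.24%. The middle deciles lay between 22.9% and 28.6%. The 3′ UTR was also shorter at the positive end, with a median of 617 bases beside 1237 at the negative end. Within 3′ UTRs of 500 bases or more the shares at the negative and positive ends were 29.9% and 9.69%, and within shorter ones 38.8% and 6.19%. By spread alone there was little difference: the letters were in 24.9% of the 200 genes with the lowest CV and in 20.6% of the 200 with the highest. The loadings come from these 6 libraries and the ordering was chosen after the pools had been seen, so the shares are a description.

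**Figure D5:**
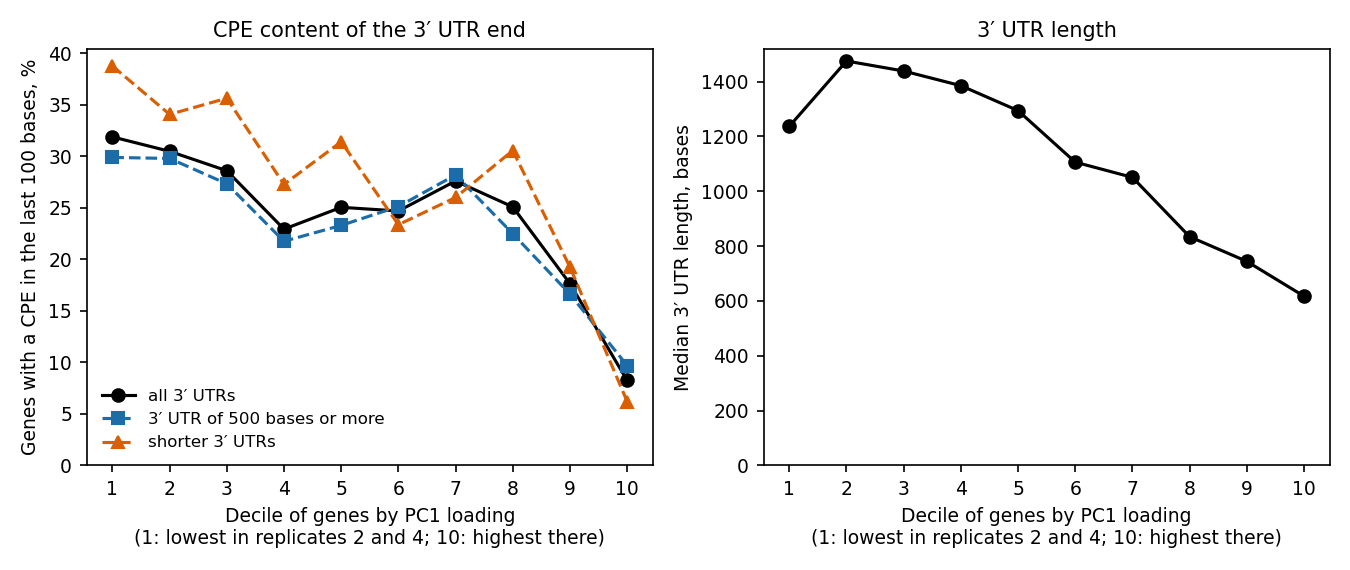
Left, share of genes with the CPE letters in the last 100 bases of the 3′ UTR (y axis, percent) in deciles of the 5784 genes ordered by loading on the first component (x axis, 1 most negative), for all 3′ UTRs and for those of 500 bases or more and shorter ones apart. Right, median 3′ UTR length (bases) in the same deciles, where the share falls to 8.24% and the length to 617 bases in decile 10.

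The ends of 3 sets of messages are shown, chosen by rank alone: the 6 most negative loadings, the 6 most positive and the 5 highest means in CPM. Each is 29 or 30 bases of the 3′ UTR on the transcript's strand, with the CPE letters and the poly(A) signal AATAAA or ATTAAA (searched in the last 40 bases) in capitals. Of the 6 most negative, low in replicates 2 and 4, Plat and Bub1b held CPE letters in the last 100 bases, and Mos, P4hb, Arcn1 and Smc3 held none.
Mos (chr4:3870664-3870693, minus strand): ggcatatttttaggaAATAAAgttaccacg
Plat (chr8:22782744-22782773, plus strand): agtatatttataTTTTAATctattttagtt
Bub1b (chr2:118641556-118641585, plus strand): cactgtgtaTTTTATAATAAAatagttttt
P4hb (chr11:120560309-120560338, minus strand): tgaacacattggctaAATAAAgttgaaatt
Arcn1 (chr9:44741567-44741596, minus strand): AATAAAtaaatctttATTAAAaaaaaaaag
In Bub1b the CPE letters lie directly before the poly(A) signal, and Smc3 had neither motif in the windows searched. Of the 6 most positive, high in replicates 2 and 4, none held CPE letters.
Timm17a (chr1:135295218-135295247, minus strand): tggaagtggaaactgAATAAAcctttgctc
Fth1 (chr19:9985058-9985087, plus strand): tgtaccatttcttcaAATAAAgaattttgg
Atp6v1e1 (chr6:120795253-120795282, minus strand): aaatattctttatttATTAAAacagagggc
The other 3 of that set, Zfp951, Zfp709 and Nubp2, had neither motif. Of the 5 highest genes by mean CPM, abundant in every pool, Tcl1, Bcl2l10, Zbed3 and Oog3 held CPE letters, and E330021D16Rik, whose end is not shown, did not.
Tcl1 (chr12:105216797-105216826, minus strand): gaatgtgtgggaTTTTATgtggttctattt
Bcl2l10 (chr9:75351590-75351618, plus strand): tTTTTAATaacttcaaattcttAATAAAt
Zbed3 (chr13:95337807-95337836, plus strand): ccttttttttTTTTAATAAAcTTTTATtta
Oog3 (chr4:144157557-144157585, minus strand): AATAAAtgtgttaactttgTTTTATtttt
Over the 20 highest genes by mean CPM 11 held CPE letters, among them H1foo and Btg4, and 9 did not, among them Slbp and Dppa3. Of the oocyte markers Gdf9 held them and Bmp15 did not. Of the 19 listed messages known to be recruited to translation during maturation, replicates 2 and 4 were the 2 lowest libraries for 4 and the 2 highest for 4. Over all 5784 genes with 10 CPM or more the shares were 27.2% and 23.6%, so these counts do not set the list apart. The median CV of the list was 31.5%, beside 34.1% over genes with 100 CPM or more, to which 18 of the 19 belong.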

How the data were processed

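The authors deposited raw read counts for each gene symbol, as integers without scaling. The submitters' processing notes name STAR, HTSeq 1.0.0, DESeq2 1.0.19 and mm10. No STAR version, gene annotation or counting option is given in the sources used here. Tallies of reads without a gene (62.3% to 66.6% of tallied reads) were left out. Counts of the 6 CD libraries were scaled with TMM factors (edgeR 4.0.16, R 4.3.3), with no group test, and DESeq2 1.42.0 gave alternative size factors. CV was computed for genes with a mean of 10 CPM or more. The computation was tried on simulated counts for genes of 100 CPM or more, without a shift shared between pools. Lengths and 3′ UTRs came from GENCODE M21, matched by symbol for 22758 genes and by a RefSeq synonym for 916, with 388 unmatched, and promoters from RefSeq. Genes were named by rank in CPM, CPM per kb, CV and loading and as leading members of 32 lists, and further list members for their role with their values seen. Some genes that this rule names are not reported here. The libraries, lists and measures were chosen with earlier results of these data known.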

Additional observations from a re-analysis of the deposited data

Results flagged for a closer look

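For each named gene, each list sum and 7 library measures, the distance of the extreme library from its nearest neighbour was divided by the range over the 6 libraries, and values above Dixon's 95% limit for 6 samples are given here. Of 190 items 21 were above it. Chance alone puts about 1 in 20 groups of independent, normally distributed values above it. The CPM of genes that vary together in the same 6 pools need not meet that condition, so the rate is only a rough guide here. That rate does not apply to genes named for their high CV, which include many of these, since the choice favours an outlying library. Replicate 3 was the high library for 15 of them. The ratios were 0.743 for Adpgk, 0.830 for Ampd3, 0.866 for Bmp15, 0.648 for Cpeb1, 0.881 for Dcp1a, 0.870 for Ermp1, 0.630 for Fbxo43 and 0.837 for Kit. They were 0.746 for Ogdh, 0.876 for Rttn, 0.798 for Slc39a10, 0.784 for Slc44a2, 0.863 for Strn, 0.857 for Tollip and 0.909 for the summed level of stromal, muscle and endothelial markers. That sum was 209.7 CPM in replicate 3 and 84.8 to 96.2 CPM in the other libraries. Pecam1 alone stood at 152 CPM in replicate 3 and at 5.56 to 39.1 CPM in the other libraries. Without Pecam1 the sum was 57.7 CPM in replicate 3, within a range of 56.8 to 88.0 CPM over the 6 libraries. Replicate 6 was the high library for the summed level of histones and histone chaperones (0.626), and replicate 1 for Cyp11a1 (0.990) and Gusb (1). Replicate 2 was high for Plin2 (0.798), replicate 4 for Mapre1 (0.646) and replicate 5 for Sohlh1 (1). Gusb (0.658 CPM in replicate 1 and 0 elsewhere) and Sohlh1 were near the floor, so their ratios rest on few reads. The ratio responds to 1 library apart from the rest and not to a shift that replicates 2 and 4 share.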

How the results depend on the processing

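The 20 highest genes by mean CPM were the steadiest result, with 19 or 20 of them kept under total-count scaling, DESeq2 size factors, each library left out and replicates 2 and 4 left out together, the last an alternative chosen after seeing the data. The 20 lowest CVs moved more: 11 were kept with total counts alone, 12 with no filter on level, 10 by edgeR's tagwise dispersion, 8 without replicates 2 and 4, and 5 to 14 with 1 library left out. Of the 20 highest CVs, 10 were kept at a mean of 50 CPM or more, 6 by the SD of log2(CPM + 2), 9 by tagwise dispersion, 7 without replicates 2 and 4, 11 to 16 with 1 library left out, and 0 with no filter, where genes of few counts lead. Genes with a CV under 20% numbered 974 without replicates 2 and 4 and 503 to 1027 with 1 library left out, the highest without replicate 3. Genes with a CV of 100% or more numbered 69 without replicates 2 and 4, 114 (without replicate 3) to 275 with 1 left out, 733 at a mean of 1 CPM or more and 5166 with no filter, which also raised the median CV to 69.6%. Counting a gene as detected from 5 counts lowered the mean per library from 12790 to 10946. The first principal component held 57.4% to 75.8% of the variance with 1 library left out. No paired analysis was possible because no comparison between groups was made. Depth limits the low genes: between 1 and 10 CPM the median counting CV was 17.9%, and under 1 CPM 77.5%. Molecules were not marked, so these counting errors are lower bounds for amplified cDNA.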

Other observations

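Message-storage genes were led by Dazl, an RNA-binding translational activator, with 1328 ± 388 CPM (SD, n = 6), and by the P-body gene Lsm14a with 729 ± 116 CPM and a CV of 15.9%. Its paralogue Lsm14b stood at 350.4, 17.8, 57.5, 23.7, 96.6 and 179 CPM in replicates 1 to 6, with the 2 lowest values in replicates 2 and 4. The cap-binding gene Eif4e had 476 ± 287 CPM, with its 2 highest values in replicates 2 and 4. Among genes of egg activation, the calcium channel Itpr2, an inositol trisphosphate receptor, had 227 ± 89.1 CPM. Of the small RNA pathway, Dicer1 led with 262 ± 144 CPM, and the piRNA gene Mael had 82.7 ± 79.1 CPM. Of 20 genes of early zygotic activation found in the table, 7 had no count in any library, 2 had a mean of 10 CPM or more (Sp110 and Tcstv1), and Zscan4d had a mean of 1.49 CPM. These genes mark transcription of the 2-cell embryo, and the collected cells were unfertilised.

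Histone and chaperone genes summed to 28345 ± 5553 CPM, most of it from Slbp, H1foo and the variant histone gene H3f3b with 4082 ± 1123 CPM. Heat-shock genes were led by Hsp90aa1 with 1354 ± 502 CPM, with its 2 lowest values in replicates 2 and 4. Proteasome genes had a median CV of 38.2%, with Psmd3 at 14.1% and Psmd6 at 88.6%, and at 38.3% without replicates 2 and 4. Of 26 genes of fatty-acid oxidation and lipid handling, 12 had a mean of 10 CPM or more, led by Etfa of electron transfer with 337 ± 76.4 CPM, while the lipid-droplet gene Plin2 had 11.7 ± 13.7 CPM. Of 22 genes of the TCA cycle and pyruvate, 16 had a mean of 10 CPM or more. Cs, citrate synthase, had 266 ± 105 CPM, and Ogdh, with 16.2, 0.199, 63.0, 1.14, 1.20 and 11.2 CPM, had a CV of 156%.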
